A study of Mus musculus with 16 samples.

Results

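The collagens, laminins, integrins and fibronectin of cultured mouse hepatocytes were examined in bulk RNA-seq. They were picked by gene symbol: a collagen alpha chain (*Col* followed by the type and chain number), a laminin alpha, beta or gamma chain, an integrin with a numbered alpha or beta subunit, or *Fn1*. This gave 75 of the 55450 genes quantified, namely 44 collagens, 11 laminins, 19 integrins and fibronectin. Integrins whose subunit carries a letter, such as *Itgav*, are not part of this set. The cells were primary hepatocytes from the livers of wild-type mice, and all of them spent the treatment overnight in DMEM with fetal bovine serum and insulin-transferrin-selenium. They were left untreated or received 10 mM sodium itaconate, a 10-fold dilution of a defined mixture of fatty acids and cholesterol (lipid), or both (lipid + itaconate), with 4 libraries for each treatment. Itaconate is a metabolite made from a citric acid cycle intermediate in activated macrophages, and the lipid mixture loads hepatocytes with fat. Each replicate letter, A to D, holds 1 library of every treatment. The labels do not say that the letters are separate animals or cultures, so that p-values measure the spread between these libraries, which may be technical. Sex and age of the donor mice are not in the labels, while the study's methods state that male mice were used.

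Collagens and laminins are secreted as trimers of 3 chains and build the matrix around cells: fibrillar collagens form the fibers of scar tissue, and type IV collagen and laminins form the sheet called basement membrane. Fibronectin is a matrix glycoprotein that hepatocytes also secrete into plasma. Integrins are receptors of 1 alpha and 1 beta subunit that hold the cell to this matrix and signal from it. The alpha subunit largely sets which ligand is bound, for example fibronectin by the alpha 5, laminins by the alpha 3, alpha 6 and alpha 7 and collagens by the alpha 1, alpha 2 and alpha 10 subunits, all of which pair with the beta 1 subunit. In healthy liver the fibrillar collagens come mainly from stellate cells, and hepatocytes sit in a sparse matrix without a full basement membrane.

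The libraries held 22346049 to 35512004 expected counts (median 27719372), of which the 75 genes took 0.303 to 0.381%. Lipid + itaconate replicate B stood apart from the rest of its group, at 106 to 147 times counting noise (chi-square per gene) against 64.5 or less for every other pair of libraries within a group. The labelled cell type was checked against marker lists. The 10 hepatocyte markers summed to 31624 to 56228 CPM (library-size-scaled counts, with TMM factors from edgeR). Of 12 stellate cell and fibroblast markers, *Reln* alone passed the filter, the summed level of the list was 16.8 to 26.4 CPM, and the defining genes *Lrat* (0.0444 CPM), *Des* (0.0291 CPM), *Pdgfrb* (0.0403 CPM) and *Acta2* (0.00253 CPM) were near 0. The 12 endothelial markers summed to 25.9 to 50.3 CPM, and the 12 macrophage markers to 168 to 337 CPM, most of it *Cd68* (218 CPM), while the Kupffer cell gene *Clec4f* was at 2.19 CPM. With lipid, 6 of the 10 tested macrophage markers were lower and 1 was higher, and 2 endothelial markers were higher and 1 lower. Of all genes tested, 23.7% were lower and 23.8% higher with lipid (edgeR, adjusted p under 0.05). On top of itaconate, lipid lowered 9 and raised 1 of the macrophage markers, beside 23.5% of all genes lower and 23.5% higher. The sum of the macrophage list went the other way, with medians of 249 CPM untreated and 307 CPM with lipid. It was 231 CPM with itaconate and 282 CPM with both. *Cd68* averaged 196 CPM untreated, 262 CPM with lipid, 165 CPM with itaconate and 248 CPM with both. Of the 10 hepatocyte markers 2 were higher and 3 lower with lipid, near the shares of all genes. Of 10 cholangiocyte markers 4 were tested, *Spp1*, *Sox9* and *Pkhd1* among them, and all 4 fell in both lipid comparisons. The summed level of that list, most of it *Spp1*, ran from 616 to 1187 CPM untreated (median 825 CPM) and from 345 to 621 CPM with lipid (median 470 CPM), while the defining genes *Krt19* (0.225 CPM), *Epcam* (0.298 CPM) and *Krt7* (0.0046 CPM) were near 0 and *Cftr* had no count. The part of these cells in the changes below was not tested. In bulk RNA, fewer cells of a type and less RNA per cell cannot be told apart.

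Testing was limited to the 11675 genes averaging 1 CPM or more across the 16 libraries, and 26 of the 75 were among them: 11 collagens, 4 laminins, 10 integrins and *Fn1*. The other 49 comprised 33 collagens, 7 laminins and 9 integrins. Of these, 40 stayed under 10 counts in every library and 8 of those had no count at all. The fibrillar collagens of scar tissue were at the floor, with means of 0.0342 CPM for *Col1a1*, 0.0122 CPM for *Col1a2* and 0.0311 CPM for *Col3a1*, and at most 3 counts in a library for any of them. No beta chain of laminin passed the filter: *Lamb3* reached at most 1.52 CPM, *Lamb2* 0.424 CPM and *Lamb1* 0.203 CPM. *Itgb4*, the partner of the alpha 6 subunit in epithelia that rest on a basement membrane, reached 0.316 CPM. The highest values below the filter were 1.83 CPM for *Col4a5* and 1.61 CPM for the integrin *Itga9*.

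Among the 26 tested genes, fibronectin was the most abundant per length. *Fn1* (chromosome 1, 71585520 to 71653200, minus strand, GRCm38) had a mean of 168 CPM per kilobase of exon over all libraries. It was followed by *Itgb1*, the common beta subunit of the matrix-binding integrins, at 105, and by *Col18a1*, the precursor of endostatin, at 44.3 CPM per kilobase. *Itgb5* (26.2), which pairs with the alpha v subunit, and *Lamc1* (20.2), the gamma chain of most laminins, came next. The leading alpha subunits of the 26 were *Itga5* (9.90), *Itga3* (7.15) and *Itga6* (3.56). *Itgav*, which is not part of the set, had treatment means from 10.6 (lipid) to 12.4 CPM per kilobase (untreated). The leading collagens after *Col18a1* were *Col12a1* (6.10), *Col4a1* (5.99), and *Col4a2* and *Col27a1* (both 1.89). With the longest transcript as the length, the first 8 places were unchanged, *Itga6* (7.45) passed *Col4a1* (6.76), and *Col27a1* (3.23) and *Itga7* (3.41) passed *Col4a2* (1.94). The laminin alpha chains were far lower, at 0.563 for *Lama3* and 0.18 CPM per kilobase for *Lama5*.

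**Figure D1:**
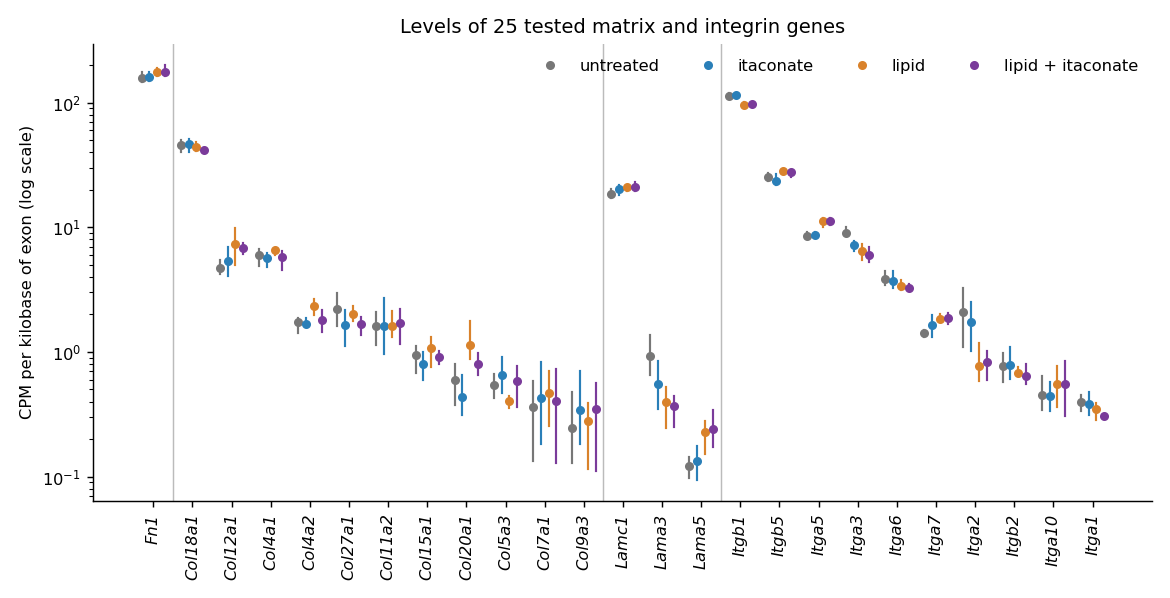
Level per kilobase of exon (CPM, log axis) of 25 tested genes, grouped as fibronectin, collagens, laminins and integrins. Points are means of 4 libraries and lines run from the lowest to the highest library of a treatment; *Fn1* leads at 168, ahead of *Itgb1* at 105, and *Lama5* is last at 0.18.

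Lipid changed more of these genes than itaconate did by count. Between untreated and lipid-treated hepatocytes, 10 of the 26 were higher and 6 were lower at an adjusted p under 0.05 (edgeR's quasi-likelihood test with the letter as a term, Benjamini-Hochberg adjustment over all genes tested). Over all genes, 23.8% were higher and 23.7% lower, so that the share of genes lower is near the background and the share higher (38.5%) is above it. Of the calls higher, those of *Col4a1* and *Fn1* were lost in 14 and 7 of 23 alternatives. When lipid was added to itaconate, 19.2% of the 26 were higher, beside 23.5% of all genes. Nothing particular to these genes is therefore read from the share higher. The median log2 fold change of the 26 was 0.15, beside 0.00 over all genes. Fibronectin, its alpha 5 receptor subunit, both tested type IV collagen chains and 2 of 3 tested fibril-associated collagens rose. The alpha 3 laminin chain, 2 of 3 laminin-binding and 1 of 3 collagen-binding alpha subunits fell, as did the beta 1 subunit. Libraries of both groups did not overlap for 5 genes that were higher and 4 that were lower, beside 16.6% and 15.9% of all genes.

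**Figure D2:**
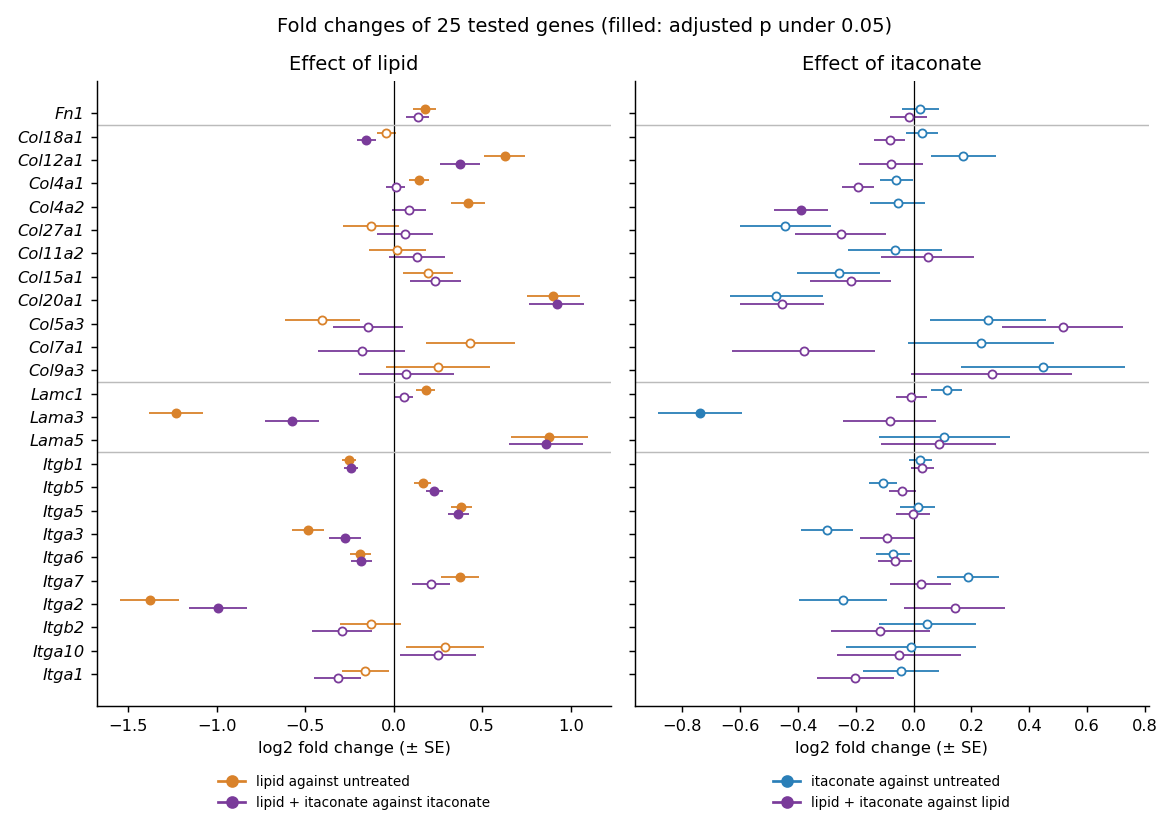
Log2 fold changes (x axis, ± SE from edgeR) of 25 tested genes for lipid (left) and for itaconate (right), each without and with the other treatment; filled points have an adjusted p under 0.05. The largest falls with lipid are *Itga2* (−1.38) and *Lama3* (−1.23), and of the itaconate comparisons 1 point is filled in each, *Lama3* without and *Col4a2* with lipid.

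The fibronectin receptor subunit *Itga5* (chromosome 15, 103344286 to 103366763, minus strand) rose in every letter with lipid. It was at 45.3, 43.5, 40.9 and 39.8 CPM in untreated libraries A to D and at 49.4, 55.6, 58.3 and 57.4 CPM in the lipid-treated ones. The lowest lipid library lay above the highest untreated one. The log2 fold change was 0.38 (SE 0.060, edgeR adjusted p = 0.000106). Its ligand *Fn1* moved less: 2067, 1723, 1814 and 1790 CPM untreated against 1976, 1930, 2233 and 2177 CPM with lipid. The *Fn1* groups overlapped because untreated library A was high, and 3 of 4 letters rose. *Fn1* had a log2 fold change of 0.17 (SE 0.065, edgeR adjusted p = 0.0359). This call was lost in edgeR without lipid replicate B (adjusted p = 0.0516), C (0.130) or D (0.161), and without untreated replicate B (0.0820), C (0.101) or D (0.0771), and over 23 alternatives the adjusted p ran from 0.0016 to 0.161. *Itgb5*, whose product pairs with the alpha v subunit to bind vitronectin, rose from 83.7, 87.7, 91.5 and 96.8 CPM to 101, 96.3, 99.9 and 105 CPM, by 0.16 on the log2 scale (SE 0.048, edgeR adjusted p = 0.0105). *Itgb5* rose in all 4 letters, with 1 untreated library above the lowest lipid library.

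The laminin alpha chain *Lama3*, part of the laminin that anchors stratified epithelia, fell with lipid. *Lama3* (chromosome 18, 12333819 to 12583013, plus strand) was at 6.98, 9.51, 8.91 and 14.6 CPM in untreated and at 2.64, 4.51, 4.22 and 5.60 CPM in lipid-treated libraries. Every lipid library was below every untreated one, and library D was the highest of both groups. The log2 fold change of *Lama3* was −1.23 (SE 0.15, edgeR adjusted p = 1.03e-05). Its partner *Lamb3*, the beta 3 chain, was below the filter at 1.03 ± 0.277 CPM (SD, n = 4) untreated and 1.04 ± 0.525 CPM with lipid, a log2 fold change of −0.01 in the fit without a filter (SE 0.29).

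Of the integrins, *Itga2*, the collagen-binding alpha 2 subunit, fell the furthest. *Itga2* (chromosome 13, 114833081 to 114932100, minus strand) was at 18.7, 23.4, 7.82 and 9.92 CPM in untreated libraries A to D and at 5.40, 8.35, 4.22 and 4.15 CPM in lipid-treated ones. Libraries A and B were well above C and D without lipid, so the groups overlapped, but the gene fell in each of the 4 letters. *Itga2* changed by −1.38 on the log2 scale (SE 0.17, edgeR adjusted p = 8.31e-06). Its tandem neighbor *Itga1*, 20995 bases away and coding for the other classical collagen-binding subunit, had a log2 fold change of −0.16 (SE 0.13, edgeR adjusted p = 0.337). The laminin-binding *Itga3* went from 48.7, 57.0, 49.9 and 48.6 CPM to 31.2, 32.9, 40.2 and 41.9 CPM, with no overlap. Its log2 fold change was −0.48 (SE 0.091, edgeR adjusted p = 0.000468). *Itga6*, the other laminin-binding subunit to fall, went from 40.3, 31.8, 30.8 and 37.2 CPM to 34.3, 28.3, 30.3 and 29.7 CPM. *Itga6* was lower in all 4 letters although the groups overlapped, by −0.19 on the log2 scale (SE 0.059, edgeR adjusted p = 0.0148). Without untreated replicate D its edgeR adjusted p was 0.0790, and over 23 alternatives it ran from 0.00736 to 0.156. *Itgb1*, the partner of these alpha subunits, had 461, 438, 470 and 485 CPM untreated and 379, 387, 379 and 412 CPM with lipid. The groups were apart, and the change was small but tight, at −0.25 on the log2 scale (SE 0.040, edgeR adjusted p = 0.000111). *Itga7*, the third laminin-binding subunit, moved the other way, from 12.1, 10.6, 11.7 and 11.7 CPM to 14.3, 14.5, 16.2 and 14.7 CPM, with no overlap and a log2 fold change of 0.38 (SE 0.11, edgeR adjusted p = 0.00933). The integrin *Itgav*, outside the symbol rule, was at 133 ± 7.13 CPM (SD, n = 4) untreated and 114 ± 12.6 CPM with lipid, a log2 fold change of −0.23 (edgeR adjusted p = 0.0265).

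**Figure D3:**
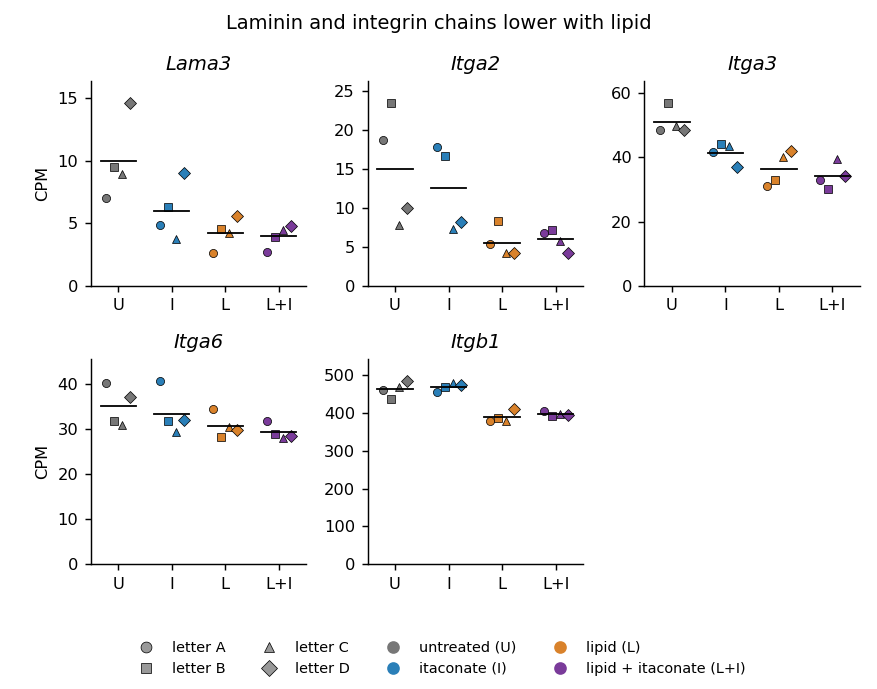
CPM (y axis, from 0) of 5 genes lower with lipid in each of the 16 libraries, by treatment (x axis and color) and replicate letter (marker), with the group mean as a line. For *Lama3* and *Itga2* the lipid means, 4.24 and 5.53 CPM, lie below the untreated means of 10.0 and 15.0 CPM.

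Type IV collagen is the network collagen of basement membranes, and its main form joins 2 alpha 1 chains with 1 alpha 2 chain. *Col4a1* and *Col4a2* lie head to head on chromosome 8 (11198423 to 11312826, minus strand, and 11312805 to 11449287, plus strand) and share 22 bases at their starts. The RefSeq windows from 250 bases before to 50 after each start (GRCm38.p6) are shown because the pair is read from 1 stretch of DNA, of which the windows share 78 bases. Capitals mark the GC box (GGGCGG) and the CCAAT box (CCAAT), searched on both strands.
Col4a1, chr8:11312777-11313076, minus strand: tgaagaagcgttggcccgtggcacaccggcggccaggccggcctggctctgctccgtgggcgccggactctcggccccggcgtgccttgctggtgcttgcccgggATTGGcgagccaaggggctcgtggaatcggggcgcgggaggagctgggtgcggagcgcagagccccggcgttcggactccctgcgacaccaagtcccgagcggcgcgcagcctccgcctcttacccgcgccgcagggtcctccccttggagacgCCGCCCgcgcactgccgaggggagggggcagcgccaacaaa
Col4a2, chr8:11312555-11312854, plus strand: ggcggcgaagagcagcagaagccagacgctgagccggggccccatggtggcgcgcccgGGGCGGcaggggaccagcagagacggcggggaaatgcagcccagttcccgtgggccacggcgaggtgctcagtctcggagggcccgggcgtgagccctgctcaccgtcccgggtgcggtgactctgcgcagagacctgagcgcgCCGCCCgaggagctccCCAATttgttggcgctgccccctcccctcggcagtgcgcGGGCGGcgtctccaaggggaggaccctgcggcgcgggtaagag
The GC box occurs once in the first window and 3 times in the second, and the CCAAT box once in each. The GC box of the first window lies in the shared bases and is the same one as the last of the second window. Of 32851 such RefSeq windows around gene starts, 35.7% hold the GC box and 37.4% the CCAAT box. Neither window holds TATAAA (13.6% of all windows).

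Both chains of the pair were higher with lipid, *Col4a2* by more. *Col4a2* was at 12.4, 12.4, 9.42 and 12.2 CPM in untreated and at 17.5, 15.7, 13.1 and 15.7 CPM in lipid-treated libraries. The groups did not overlap, and library C was the lowest in both. The log2 fold change of *Col4a2* was 0.42 (SE 0.095, edgeR adjusted p = 0.00188). *Col4a1* was at 49.8, 45.8, 36.3 and 45.9 CPM and at 48.6, 50.4, 45.0 and 51.1 CPM. Its groups overlapped and library A did not rise. The log2 fold change of *Col4a1* was 0.14 (SE 0.056, edgeR adjusted p = 0.0445), and this call held in 9 of 23 alternatives, whose adjusted p ran from 0.00918 to 0.360. It was lost in edgeR without lipid replicate C (adjusted p = 0.192) or D (0.124), untreated replicate B (0.134), C (0.124) or D (0.0650), itaconate replicate C (0.0550) or D (0.0530), or lipid + itaconate replicate D (0.0533), and with RLE scaling (0.0520), limma-trend (0.0517) and DESeq2 (0.0679).

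Of the fibril-associated collagens, which sit on the surface of collagen fibers, *Col12a1* and *Col20a1* rose. *Col12a1* (chromosome 9, 79598991 to 79718831, minus strand) was at 65.4, 74.8, 82.8 and 64.7 CPM untreated and at 76.0, 97.5, 150 and 128 CPM with lipid. All 4 letters rose, C and D the most. With lipid *Col12a1* had a log2 fold change of 0.63 (SE 0.11, edgeR adjusted p = 0.000340). *Col20a1* (chromosome 2, 180986535 to 181018363, plus strand) was low, at 1.92, 2.98, 4.09 and 3.18 CPM untreated and 4.55, 4.51, 9.08 and 5.13 CPM with lipid. Its groups were apart, and the log2 fold change was 0.90 (SE 0.15, edgeR adjusted p = 0.000167). Among collagens below the filter, *Col26a1* reached 0.730 CPM in 1 library (18 counts at most) and was called only in the fit without a filter, at a log2 fold change of 1.90 with lipid (SE 0.62, edgeR adjusted p = 0.0120 without a filter). The 3 tested fibrillar collagens, *Col27a1*, *Col11a2* and *Col5a3*, gave log2 fold changes of −0.13, 0.02 and −0.40 (edgeR adjusted p = 0.523, 0.928 and 0.129).

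Of the laminins, *Lamc1* and *Lama5* were higher with lipid. *Lamc1* was at 169, 143, 153 and 150 CPM untreated and at 172, 162, 182 and 180 CPM with lipid. It rose in all 4 letters, by 0.18 on the log2 scale (SE 0.054, edgeR adjusted p = 0.0116), with overlapping groups. Without lipid replicate D its edgeR adjusted p was 0.0588, and over 23 alternatives it ran from 0.00195 to 0.0633. *Lama5* (chromosome 2, 180176373 to 180225859, minus strand), the alpha chain of many mature basement membranes, was the least abundant tested gene per kilobase, at 1.26, 1.65, 1.5 and 1.11 CPM untreated and 2.80, 2.56, 3.20 and 1.72 CPM with lipid. Its groups did not overlap, and the log2 fold change was 0.88 (SE 0.22, edgeR adjusted p = 0.00348).

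**Figure D4:**
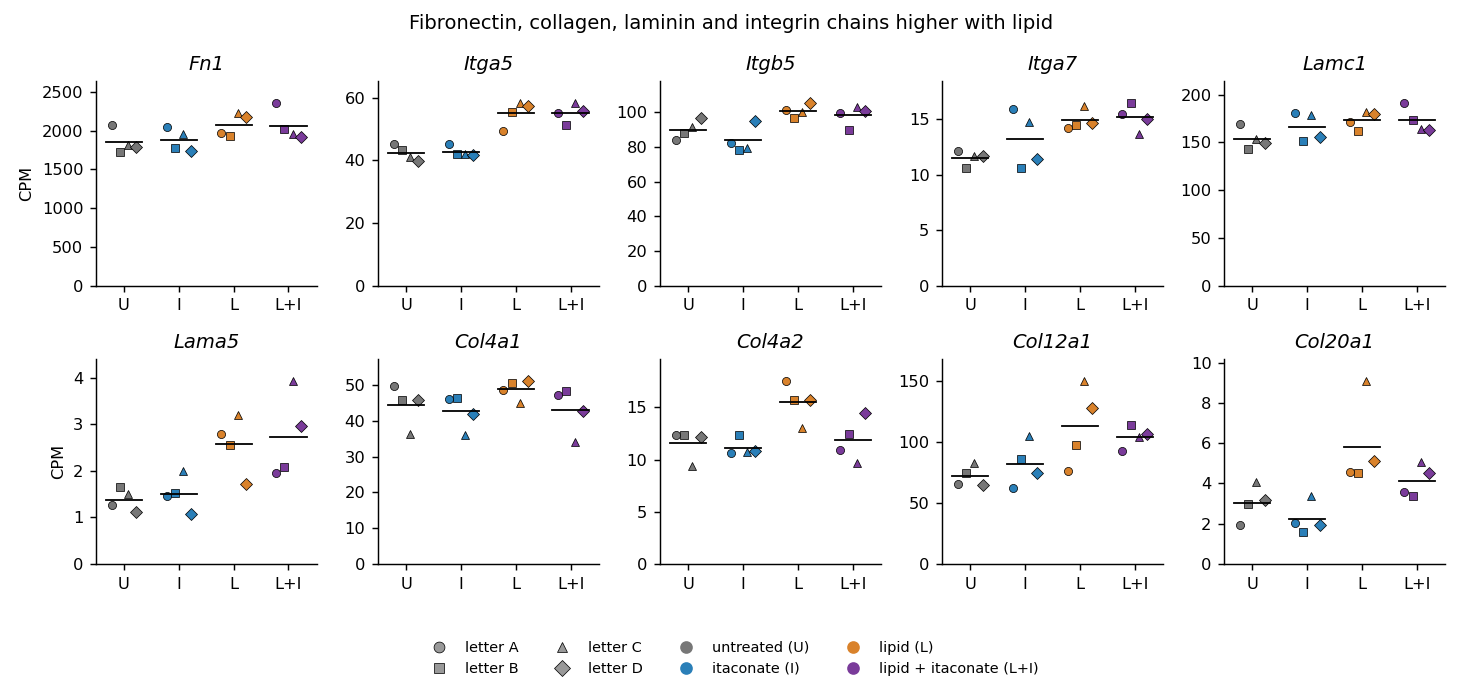
CPM (y axis, from 0) of the 10 genes higher with lipid in each of the 16 libraries, by treatment (x axis and color) and replicate letter (marker), with the group mean as a line. For *Itga5* and *Col4a2* the lipid libraries lie above the untreated ones, and the lipid + itaconate mean of *Col4a2* (11.9 CPM) is below the lipid mean (15.5 CPM). The same lipid libraries enter both comparisons.

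In the presence of itaconate, lipid raised 5 and lowered 6 of the 26 genes (lipid + itaconate against itaconate, edgeR, the same threshold), beside 23.5% of all genes higher and 23.5% lower, so that both shares are near the background. This comparison shares no library with the one above, but the letters and the estimate of the spread are common to both. Of the 16 genes called there, 10 were called here too, 5 higher and 5 lower in both, and 6 were not. Of all genes, 47.5% were called there and 47% here in either direction. The share of all genes called in both is not given, so the overlap is not read as particular to these genes. *Itga5* was at 45.2, 42.1, 42.0 and 41.8 CPM with itaconate and at 55.1, 51.2, 58.3 and 55.8 CPM with both, again without overlap, a log2 fold change of 0.36 (SE 0.060, edgeR adjusted p = 0.000171). It was the 1 gene higher whose groups did not overlap, beside 16.6% of all genes. *Itgb5* (log2 fold change 0.23, SE 0.048), *Col20a1* (0.92, SE 0.16) and *Lama5* (0.86, SE 0.21) rose in all 4 letters, and *Col12a1* (0.38, SE 0.11) in 3 of 4.

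Libraries with itaconate and with lipid + itaconate did not overlap for 3 genes that were lower, *Itgb1* and *Itga2* among them, beside 14.8% of all genes. *Itga2* was at 17.8, 16.7, 7.30 and 8.13 CPM with itaconate and 6.77, 7.20, 5.69 and 4.23 CPM with both, a log2 fold change of −0.99 (SE 0.16, edgeR adjusted p = 0.000172). *Itgb1* was at 457, 470, 481 and 474 CPM and at 406, 391, 397 and 395 CPM, a log2 fold change of −0.24 (SE 0.040, edgeR adjusted p = 0.000168). Both fell in all 4 letters, as without itaconate. *Lama3* fell from 4.90, 6.28, 3.73 and 9.05 CPM to 2.7, 3.93, 4.44 and 4.76 CPM, in 3 of 4 letters, by 0.58 on the log2 scale (SE 0.15, edgeR adjusted p = 0.00638). *Itga3* (log2 fold change −0.28, SE 0.091, edgeR adjusted p = 0.0211) and *Itga6* (−0.18, SE 0.058, edgeR adjusted p = 0.0180) fell in all 4 letters. *Col18a1* fell by 0.15 (SE 0.054, edgeR adjusted p = 0.0289) and was not called without itaconate (log2 fold change −0.04, edgeR adjusted p = 0.541). *Fn1*, *Lamc1*, *Itga7*, *Col4a1* and *Col4a2* were not called here, with log2 fold changes of 0.13, 0.06, 0.21, 0.01 and 0.09 (edgeR adjusted p = 0.0982, 0.393, 0.112, 0.894 and 0.475). When lipid + itaconate replicate B, the library that stood apart, was left out, 10 of the 11 calls remained and *Itga3* was lost (edgeR adjusted p = 0.0799). Leaving out other libraries in edgeR removed *Itga3* (itaconate A or B, both 0.0717), *Itga6* (itaconate A 0.0763, lipid + itaconate A 0.0662 or D 0.0555), *Col12a1* (itaconate D 0.0503) and *Col18a1* (itaconate A 0.0663, C 0.127 or D 0.0566, lipid + itaconate A 0.0893, C 0.0612 or D 0.0827), and over 23 alternatives these genes reached at most 0.0799, 0.163, 0.133 and 0.127.

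Itaconate without lipid changed 1 of the 26 genes, *Lama3*, which fell. With edgeR 0 were higher and 1 was lower, beside 1.96% and 2.95% of all genes. At an unadjusted p under 0.05, 1 was higher and 6 were lower. The share of all genes at that threshold is not given, so nothing is read from these counts. At the adjusted threshold DESeq2 also gave 0 higher, with 2 lower (*Itga3* and *Lama3*), and limma-trend 0 higher and 1 lower. In either direction DESeq2 called 6.76% and limma-trend 5.11% of all genes. *Lama3* was at 6.98, 9.51, 8.91 and 14.6 CPM untreated and at 4.90, 6.28, 3.73 and 9.05 CPM with itaconate, and it was lower in each letter although the groups overlapped. Its log2 fold change was −0.74 (SE 0.14, edgeR adjusted p = 0.00949). Its call held in 22 of 23 alternatives and was lost in a fit without the letter (edgeR adjusted p = 0.260, over all alternatives 3.69e-07 to 0.260). *Itga3* was the 1 gene with separate groups, beside 3.86% of all genes lower in that way. It was at 48.7, 57.0, 49.9 and 48.6 CPM untreated and at 41.6, 44.2, 43.5 and 36.9 CPM with itaconate, and did not pass the threshold (log2 fold change −0.30, SE 0.090, edgeR adjusted p = 0.0664). This comparison uses the same untreated libraries as that of lipid. The untreated levels of *Lama3* and *Itga3* are thus common to both, and the values with lipid were 4.24 ± 1.22 and 36.6 ± 5.29 CPM (SD, n = 4) beside 5.99 ± 2.29 and 41.5 ± 3.28 CPM with itaconate. *Fn1*, *Itgb1* and *Itga5* had log2 fold changes of 0.02, 0.02 and 0.01 with itaconate, with SEs of 0.064, 0.040 and 0.061.

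On top of lipid, itaconate changed 1 of the 26 genes, *Col4a2*, which fell (lipid + itaconate against lipid). With edgeR 0 were higher and 1 was lower, beside 1.32% and 1.26% of all genes. DESeq2 and limma-trend gave the same 0 and 1, beside 4.36% and 2.56% of all genes in either direction. In edgeR 1 was higher and 3 were lower at an unadjusted p under 0.05. Nothing is read from these unadjusted counts, as the share of all genes at that threshold is not given. *Col4a2* was at 17.5, 15.7, 13.1 and 15.7 CPM with lipid and at 11.0, 12.4, 9.65 and 14.5 CPM with both. It was lower in each letter, least in D, and 1 library with both treatments lay above the lowest lipid library. The log2 fold change was −0.39 (SE 0.094, edgeR adjusted p = 0.0409). This comparison uses the same lipid libraries as that of lipid against untreated. The lipid levels of *Col4a2* are thus common to its rise there and to its fall here. Its partner *Col4a1* was also lower in each letter, from 48.6, 50.4, 45.0 and 51.1 CPM to 47.2, 48.2, 33.9 and 42.7 CPM, and did not pass (log2 fold change −0.19, SE 0.056, edgeR adjusted p = 0.0771). The call for *Col4a2* held in 9 of 23 alternatives, whose adjusted p ran from 0.00428 to 0.309. In edgeR it was lost without lipid replicate A (0.124), B (0.0598), C (0.0767) or D (0.0858), lipid + itaconate replicate A (0.166) or B (0.0972), itaconate replicate A (0.0511) or B (0.0545), or untreated replicate A (0.0563), B (0.0571), C (0.0511) or D (0.0594), while the log2 fold change stayed between −0.49 and −0.32. *Lama3*, which fell with itaconate alone, had a log2 fold change of −0.08 (SE 0.16) on top of lipid.

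Whether the effect of itaconate differed with and without lipid was tested by the interaction term. None of the 26 genes passed it (0 called with edgeR, DESeq2 or limma-trend), beside 1 of all 11675 genes (0.00857%). At an unadjusted p under 0.05 there were 2 in edgeR and limma-trend, *Lama3* and *Col4a2*, and 3 with DESeq2, where *Col7a1* was added. Here too the share of all genes is not given, and nothing is read from the counts. *Lama3* had an interaction of 0.65 on the log2 scale (SE 0.22, edgeR adjusted p = 0.398) and *Col4a2* of −0.33 (SE 0.13, edgeR adjusted p = 0.504). Without the filter on low counts *Lama3* passed in edgeR, as 1 of 67 genes with counts, beside 0.894% of all genes in that fit.

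Other genes of matrix and adhesion were drawn from 7 lists, whose counts with lipid stand beside 23.8% of all genes higher and 23.7% lower. These lists are small, and nothing particular to a list is read from its count. Of 15 tested genes for collagen folding and cross-linking, 3 rose and 7 fell with lipid (3 and 5 on top of itaconate): the lysyl hydroxylase *Plod1* rose from 57.9 ± 4.11 to 75.3 ± 3.95 CPM (SD, n = 4, log2 fold change 0.38, edgeR adjusted p = 2.57e-06) and the lysyl oxidase *Loxl2* fell from 21.1 ± 3.66 to 11.5 ± 3.70 CPM (−0.89, edgeR adjusted p = 4.41e-05). Both were lower with itaconate alone (*Plod1* −0.20, *Loxl2* −0.52, edgeR adjusted p = 0.0128 and 0.0253). On top of lipid, itaconate also lowered *Plod1* (−0.18, edgeR adjusted p = 0.0264). Of 13 matrix glycoproteins, 2 rose and 9 fell with lipid (6 fell on top of itaconate), among them osteopontin (*Spp1*), from 722 ± 248 to 369 ± 131 CPM (log2 fold change −0.97), and thrombospondin 1 (*Thbs1*), from 14.5 ± 5.55 to 5.55 ± 2.43 CPM (−1.37). *Spp1* is also the main gene of the cholangiocyte list, of which all 4 tested genes fell. The basement membrane heparan sulfate proteoglycan *Agrn*, on the same list, was the 1 gene of it lower with itaconate, from 175 ± 10.6 to 134 ± 18.1 CPM (log2 fold change −0.39, edgeR adjusted p = 0.0327). Of 7 proteoglycans 2 rose and 3 fell with lipid, with *Prelp* falling by 3.59 and *Gpc1* rising by 0.53 on the log2 scale.

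Of 13 matrix proteases and inhibitors, 4 rose and 1 fell with lipid, and 6 rose and 5 fell when lipid was added to itaconate. The membrane metalloproteases *Mmp14* (97.7 ± 13.0 to 126 ± 20.9 CPM, SD, n = 4) and *Mmp15* (23.9 ± 2.12 to 30.6 ± 3.09 CPM) were each 0.36 higher on the log2 scale. With itaconate alone the macrophage elastase *Mmp12* rose (log2 fold change 0.90, edgeR adjusted p = 0.00271) and the urokinase receptor *Plaur* fell (−0.51, edgeR adjusted p = 0.00389). Of 30 genes of the adhesion complex that links integrins to actin, 3 rose and 10 fell with lipid (1 and 11 on top of itaconate). The integrin-linked kinase *Ilk* fell from 186 ± 7.94 to 139 ± 7.29 CPM (log2 fold change −0.42), and the scaffold *Nedd9* fell from 23.2 ± 2.63 to 9.56 ± 0.846 CPM (−1.27). *Nedd9* was higher with itaconate on top of lipid, at 13.8 ± 1.28 CPM (log2 fold change 0.53, edgeR adjusted p = 0.0167), and the kinase *Ptk2b* was lower (−0.33, edgeR adjusted p = 0.00712). Of 8 other matrix receptors 4 fell with lipid, including *Cd44*, the hyaluronan receptor, which was also the 1 gene of the list lower with itaconate alone (log2 fold changes of −0.88 and −0.85). Of 15 TGF beta and YAP genes 4 rose and 4 fell with lipid (3 and 4 on top of itaconate), near the share of all genes: the receptor *Tgfbr2* rose by 0.38 and the signal transducer *Smad3* fell by 0.48 on the log2 scale. On top of lipid, itaconate lowered *Tgfb2* (18.7 ± 6.54 to 10.7 ± 1.29 CPM, log2 fold change −0.76) and *Ankrd1* (−1.15). *Ankrd1* was also lower with itaconate alone (log2 fold change −0.82, edgeR adjusted p = 0.0419).

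Apart from treatment, several of the genes differed by replicate letter. The highest letter mean was at least 2 times the lowest in 3 of the 26 genes (11.5%), beside 1.61% of all genes tested, and the median ratio was 1.29 beside 1.14. All genes tested were not matched to the 26 for level, and few counts make such ratios less precise. The 3 genes, *Col7a1*, *Col9a3* and *Itga2*, averaged 4.26, 1.17 and 9.74 CPM. *Col7a1*, the anchoring fibril collagen, had letter means of 2.18, 2.44, 7.31 and 5.12 CPM for A to D. *Col9a3* had 0.700, 0.630, 2.05 and 1.3 CPM. For *Col7a1* every library of C and D was above every library of A and B, whatever the treatment, and for *Col9a3* the lowest library of D (0.927 CPM) was below the highest of A (1.05 CPM). *Itga2* ran the other way, with 12.2 and 13.9 CPM in A and B and 6.26 and 6.61 CPM in C and D. *Col11a2* (8.70, 8.72, 15.7 and 11.9 CPM) and *Itga10* (1.93, 2.01, 3.38 and 3.05 CPM) were also higher in C and D, with some overlap. The summed marker lists differed by letter too. For A to D they were 882, 679, 577 and 479 CPM for cholangiocytes, 204, 252, 303 and 286 CPM for macrophages, 34.8, 45.9, 32.3 and 38.9 CPM for endothelial cells, and 52875, 43982, 37186 and 40147 CPM for hepatocytes. Their part in the letter differences was not tested, and what the letters stand for is not in the labels.

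**Figure D5:**
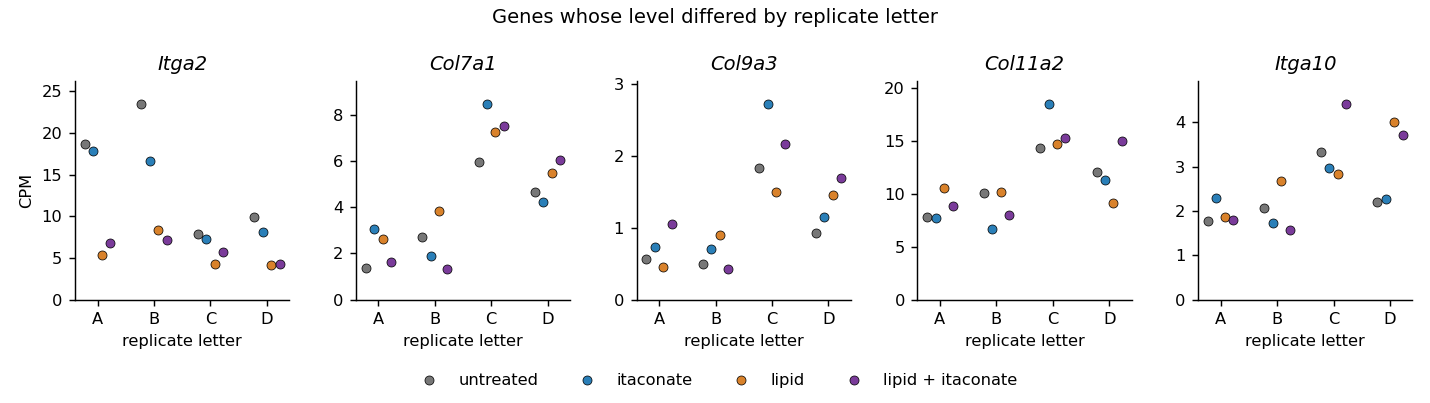
CPM (y axis, from 0) of 5 genes in each library, by replicate letter (x axis) and treatment (color). The libraries of letters C and D are above those of A and B for *Col7a1*, and the letter means of *Itga2* are lower in C and D (6.26 and 6.61 CPM) than in A and B (12.2 and 13.9 CPM).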

How the data were processed

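The authors' deposited values are expected counts per gene from RSEM 1.3.1, after reads of stranded mRNA libraries were trimmed (cutadapt 1.18) and aligned to mm10 with STAR 2.7.0f, as the submitters' processing notes list; RSEM splits reads shared by related genes, and 5.41% of the values were not whole. Positions and lengths are those of GENCODE M21, which held all 55450 identifiers. Counts were rounded, scaled by TMM and tested in R 4.3.3 with edgeR 4.0.16 (quasi-likelihood, treatment plus letter, 16 libraries, mean of at least 1 CPM). SE is the log2 fold change over the root of F. DESeq2 1.42.0 and limma 3.58.1 were alternatives. DESeq2 gave no adjusted p in 17 tests of the collagens, laminins, integrins and *Fn1*, and these are counted as not called. Libraries that share a letter deviated together (correlation of deviations from the group mean 0.144 to 0.469 in all 24 pairs, median 0.263, each over 0.1), so the letter was taken to pair them. The 72 pairs of unlike letters ran from −0.436 to 0.179 (median −0.114), so the 2 ranges overlap. Totals were 22346049 to 35512004 counts per library, and low tested genes had few of them (11 to 72 for *Col9a3*, 27 to 116 for *Lama5*), so their errors are wide. The fits were tested on simulated data. The genes and lists were chosen with earlier results of these data known. Named were genes called in any of 5 comparisons, *Fn1* and the most abundant of each family, and at most 2 genes per other list and comparison. *Itgav*, *Itga1*, *Lamb3*, *Col26a1* and the genes described by letter were named after their values were seen. Some genes that passed the filter are part of the counts but are not reported here.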

Additional observations from a re-analysis of the deposited data

Results flagged for a closer look

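In 68 groups of 4 libraries, 5 held 1 library far from the other 3 (the gap to the nearest other library over the range of the group was above Dixon's critical value for 4), and chance flags about 1 in 20. *Col20a1* was at 9.08 CPM in lipid replicate C, beside 4.51 to 5.13 CPM in the other lipid libraries. *Col4a2* was at 9.42 CPM in untreated replicate C, beside 12.2 to 12.4 CPM, and at 12.3 CPM in itaconate replicate B, beside 10.7 to 10.8 CPM. *Itga3* was at 57.0 CPM in untreated replicate B, beside 48.6 to 49.9 CPM. *Itga5* was at 45.2 CPM in itaconate replicate A, beside 41.8 to 42.1 CPM.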

How the results depend on the processing

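Of the 29 calls of a gene in a comparison, 0 changed direction under 23 alternatives. With no replicate block (no letter in the fit), 18 of the 29 were kept, and the number of genes called was 0 for itaconate, 0 for itaconate on top of lipid, 11 of 16 for lipid and 7 of 11 for lipid on top of itaconate. The shares of all genes called in that fit were 0.197%, 0.0771%, 35.5% and 34.2%. With no filter 67 of the genes were tested, and the counts for itaconate, itaconate on top of lipid and the interaction were 4, 4 and 1. The shares of all genes called were then 4.30%, 2.86% and 0.894%. With only the libraries compared in the fit, the counts for itaconate and for itaconate on top of lipid were 5 and 0 of 26. Of all genes, 16.0% and 0.111% were called there. DESeq2 gave 2 for itaconate, beside 6.76% of all genes. Without 1 library the counts ran from 1 to 2 for itaconate and from 0 to 3 for itaconate on top of lipid, and from 12 to 16 and 9 to 13 in the lipid comparisons. Over these fits the share of all genes called ran from 1.28% to 8.96% and from 0.505% to 7.61%. In the lipid comparisons it ran from 40.4% to 51.4% and from 38.8% to 47.6%. The cause of the calls lost or gained was not tested. *Lama5*, *Lama3* and *Col20a1* have few counts per library (27 to 116 for *Lama5*), which limits their precision.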
